A study of Homo sapiens with 4 samples.

Results

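Glucose is imported by the GLUT transporters, phosphorylated by hexokinases, committed to glycolysis by phosphofructokinase and broken down to pyruvate, which is either reduced to lactate and exported or oxidised in mitochondria. The pentose phosphate pathway branches off after the hexokinase step and yields NADPH and ribose phosphate. Many genes of glucose uptake and glycolysis are also known targets of the hypoxia-inducible factors HIF-1 and HIF-2, whose alpha subunits HIF1A and EPAS1 are hydroxylated for destruction by the EGLN enzymes when oxygen is present. BCR-ABL, the fusion kinase of chronic myeloid leukaemia, is known to raise glucose uptake in leukaemia cells, and imatinib is an inhibitor of that kinase.

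The expression of 45 genes of these pathways, chosen by their symbols from the 32673 genes of the table, was examined in an imatinib-sensitive and an imatinib-resistant cell line. They comprise 4 glucose and lactate transporters, 3 hexokinases, 6 phosphofructokinase and PFKFB genes, 12 genes of the other glycolytic steps, 6 genes of the fate of pyruvate, 6 of the pentose phosphate pathway and 8 of the hypoxia response. TF1-BA cells are the human erythroleukaemia cell line TF1 with BCR-ABL introduced by a retrovirus and are imatinib sensitive. TF1-BAR cells were derived from them by long culture with imatinib and are imatinib resistant, so that both lines carry BCR-ABL. Per the labels, both lines grew with GM-CSF at 2 ng/ml (the study's methods state a higher concentration), 2 μM imatinib was added to the TF1-BAR culture, and each replicate held 10000000 cells. Whether imatinib was present when RNA was taken is not given in the sources used here, and the TF1-BAR libraries carry the word VECTOR in their titles. Resistance, exposure to the drug and any effect of a vector therefore cannot be told apart in this comparison. Each line has 2 libraries, and nothing in the labels says that they came from separate cultures, so that p-values measure only the spread between these libraries, which may be technical. A single resistant line was sequenced, and its differences from TF1-BA cells are those of that line.

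Expression was measured as FPKM, fragments scaled to the exon length of the gene and to the size of the library, with 15465497 to 18042299 fragments per library as recovered from the values. All 8 markers of an erythroid-myeloid progenitor line, among them GATA1, TAL1, KIT and CD34, were expressed in every library (6.64 to 75.4 FPKM). Their summed level was 260 and 252 FPKM in TF1-BA cells and 357 and 379 FPKM in TF1-BAR cells, with CD34 at 25.8 and 24.7 against 53.9 and 61.2 FPKM and KIT at 28.4 and 25.4 against 58.7 and 59.3 FPKM, while GATA1 was at 75.4 and 74.7 against 65.9 and 70.6 FPKM and CSF2RA at 7.90 and 8.07 against 6.64 and 7.28 FPKM. Markers of monocytes, fibroblasts, endothelium and epithelium were at 1.34 FPKM or lower in every library, with the exception of PECAM1 (23.3 to 25.7 FPKM), and CD14, CD163, COL1A2, KRT19 and CDH1 each had no more than 3 fragments in any library. The monocyte list summed to 0.337 and 0.370 FPKM in TF1-BA cells and to 1.43 and 1.42 FPKM in TF1-BAR cells. Of the 4 lymphocyte markers in the table, CD3D was the most abundant, and the list summed to 22.3 and 24.2 FPKM in TF1-BA cells and to 10.2 and 10.5 FPKM in TF1-BAR cells. CD3D was at 19.2 and 20.7 against 5.74 and 6.36 FPKM, CD79A went the other way at 1.84 and 2.19 against 3.55 and 3.15 FPKM, and CD3E had at most 1 fragment in any library. Mitochondrially encoded genes took 10.3% and 10.1% of fragments in TF1-BA cells and 8.07% and 7.56% in TF1-BAR cells, and the part of these differences in the results below was not tested. In bulk samples, fewer cells of a type and less RNA per cell cannot be told apart.

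Genes of glucose handling were more often downregulated than upregulated in TF1-BAR cells. Of the 45 genes, 43 had a mean of at least 0.5 FPKM and were tested by limma on log2(FPKM + 0.5), with p-values adjusted over all 15519 genes tested. At an adjusted p under 0.05, 16 genes were called, where 26.9% of all genes tested were, and of these 13 genes were lower in TF1-BAR cells (30.2%) against 10.5% of all genes tested, and 3 were higher (6.98%) against 16.3%. The 13 downregulated genes were SLC2A1, SLC16A3, HK1, PFKP, GPI, TPI1, PGK1, PGAM1, PDK3, PDHA1, PGD, TALDO1 and VEGFA, and the 3 upregulated genes were EPAS1, SLC2A3 and PFKFB4. The median log2 fold change of the 43 genes was −0.15, beside 0.07 over all genes tested, and 27 of the 43 values were below 0, against 42.7% of all genes. No gene also reached a log2 fold change of 1 or −1, which 4.75% of all genes tested did (3.05% higher and 1.69% lower), and EPAS1 at 0.998 fell just short of that limit.

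In 23 of the 43 genes both TF1-BAR libraries lay below both TF1-BA libraries (53.5%, against 28.4% of all genes tested), in 11 they lay above (25.6%, against 40.9%), and in 9 the lines overlapped. The summed FPKM of all 45 genes was 2970 ± 11.6 in TF1-BA cells and 2598 ± 29.8 in TF1-BAR cells (SD, n = 2), which is 12.5% lower. Their part of all FPKM was 0.972% and 0.979% in TF1-BA cells and 0.885% and 0.905% in TF1-BAR cells. Expression levels matter for such counts, since abundant genes are measured more precisely. Among the 37 of these genes with a mean of at least 5 FPKM, 12 were lower and 3 were higher (32.4% and 8.11%), while among the 6764 protein-coding genes at that level 15.0% were lower and 18.4% were higher.

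**Figure D1:**
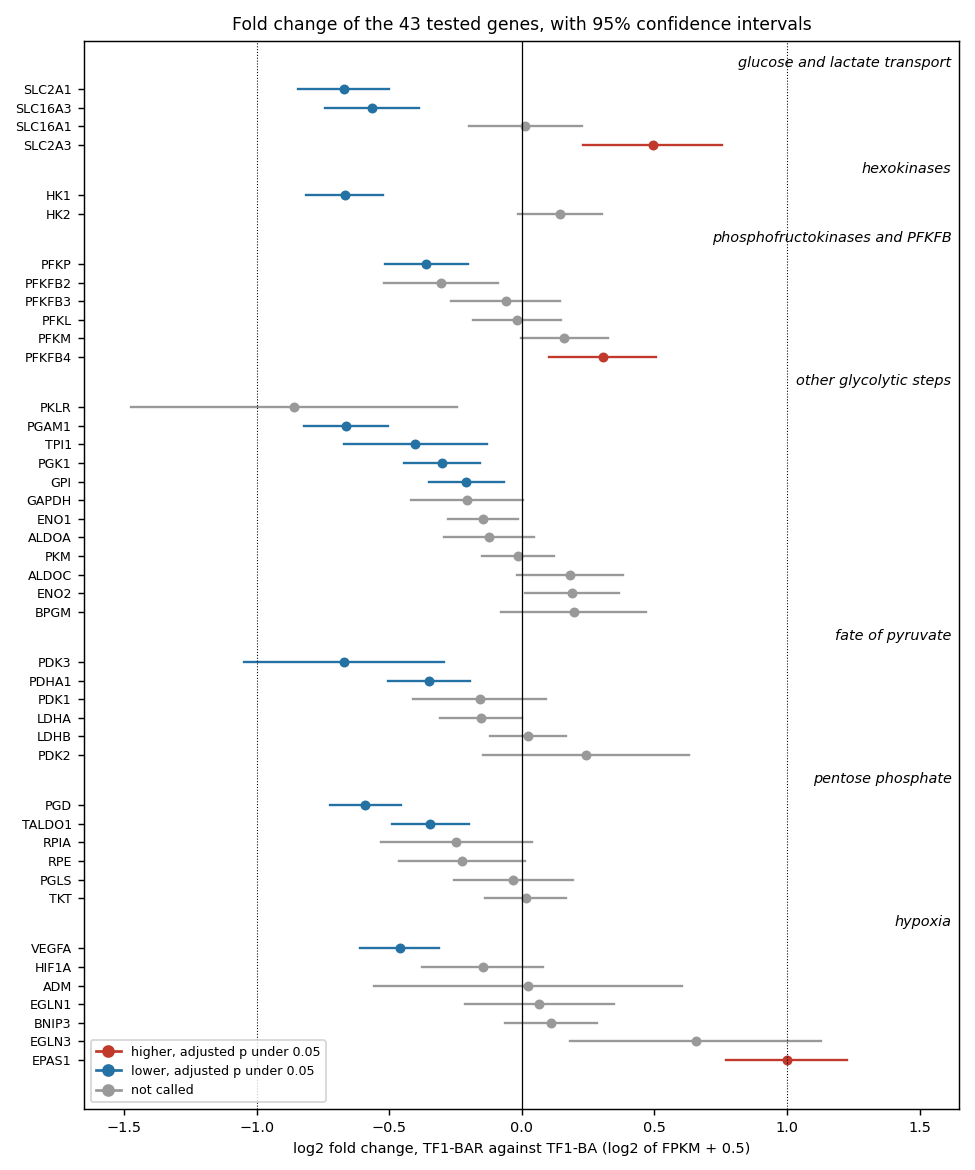
The log2 fold change of TF1-BAR against TF1-BA cells is plotted on the x axis for each of the 43 tested genes, grouped by role, with bars for the 95% confidence interval from limma and dotted lines at −1 and 1. The 13 downregulated genes (blue) are spread over all groups, and the 3 upregulated genes (red) are SLC2A3, PFKFB4 and EPAS1.

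Regulatory sequence is shown first for 6 of these genes, because the hypoxia-inducible factors recognise the core RCGTG, read as ACGTG or GCGTG. The 250 bases before the transcript start that RefSeq gives for the gene are shown in the direction of the gene (GRCh38.p14). That start can lie inside the span of the gene in the deposited table, and the windows of EPAS1, SLC2A1, PGD and PGK1 lie wholly and those of LDHA and BNIP3 partly within it. The letters are in lower case with each match to ACGTG or GCGTG on either strand in capitals, where CACGTG counts as 2 overlapping matches. The genes were chosen after their values were seen, to set the main upregulated and downregulated genes beside textbook HIF targets.
EPAS1 (chr2:46297157-46297406, plus strand): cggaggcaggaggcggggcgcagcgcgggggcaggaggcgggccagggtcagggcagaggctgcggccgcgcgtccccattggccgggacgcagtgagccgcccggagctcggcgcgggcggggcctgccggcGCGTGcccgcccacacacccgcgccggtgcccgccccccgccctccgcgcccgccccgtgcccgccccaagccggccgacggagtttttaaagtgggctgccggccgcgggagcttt
SLC2A1 (chr1:42958869-42959118, minus strand): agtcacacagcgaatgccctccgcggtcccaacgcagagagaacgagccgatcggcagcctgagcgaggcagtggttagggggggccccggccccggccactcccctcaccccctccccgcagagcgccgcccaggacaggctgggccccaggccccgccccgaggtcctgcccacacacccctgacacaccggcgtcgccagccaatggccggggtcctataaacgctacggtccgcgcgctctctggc
PGD (chr1:10398814-10399063, plus strand): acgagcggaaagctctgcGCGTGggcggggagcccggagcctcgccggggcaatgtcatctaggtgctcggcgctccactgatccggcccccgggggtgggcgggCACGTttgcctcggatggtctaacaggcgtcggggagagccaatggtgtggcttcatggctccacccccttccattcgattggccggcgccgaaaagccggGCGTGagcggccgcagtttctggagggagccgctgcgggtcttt
PGK1 (chrX:78103998-78104247, plus strand): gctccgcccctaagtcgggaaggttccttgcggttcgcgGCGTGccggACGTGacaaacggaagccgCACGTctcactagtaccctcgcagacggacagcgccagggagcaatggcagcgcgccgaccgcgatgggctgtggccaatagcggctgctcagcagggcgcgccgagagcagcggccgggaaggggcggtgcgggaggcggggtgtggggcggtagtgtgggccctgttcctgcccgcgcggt
LDHA (chr11:18394313-18394562, plus strand): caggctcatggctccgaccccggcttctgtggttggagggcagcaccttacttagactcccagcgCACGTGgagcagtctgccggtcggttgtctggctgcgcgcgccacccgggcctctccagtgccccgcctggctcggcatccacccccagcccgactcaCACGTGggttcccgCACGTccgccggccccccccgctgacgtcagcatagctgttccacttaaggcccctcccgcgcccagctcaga
BNIP3 (chr10:131981924-131982173, minus strand): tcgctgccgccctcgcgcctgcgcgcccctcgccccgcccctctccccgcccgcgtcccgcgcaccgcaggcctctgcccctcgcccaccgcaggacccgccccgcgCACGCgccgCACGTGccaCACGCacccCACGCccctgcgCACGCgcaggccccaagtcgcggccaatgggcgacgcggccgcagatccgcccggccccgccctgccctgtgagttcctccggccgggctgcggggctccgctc
The window of EPAS1 held 1 match and that of SLC2A1 held 0, while PGD and PGK1 held 3 each, LDHA 5 and BNIP3 6. A window was found for 41 of the 45 genes, without SLC2A3, SLC16A1, PFKFB2 and VEGFA. At least 1 match lay in 24 of the 41 (58.5%), close to the 57.7% of 9552 promoters of genes tested and above the 43.1% of all 27305 promoters. Matches lay in 5 of 12 downregulated genes (41.7%), in both upregulated genes with a window and in 16 of 25 tested genes that were not called (64.0%). The match is a description of the letters in the window and not of binding.

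Of the glucose transporters, SLC2A1 was downregulated and SLC2A3 was upregulated in TF1-BAR cells. SLC2A1, which encodes the widely expressed glucose transporter GLUT1 (positions 42925375 to 42959173 of chromosome 1), was at 51.4 and 53.7 FPKM in TF1-BA cells and at 31.8 and 33.8 FPKM in TF1-BAR cells. The lines did not overlap, and the level was 1.60-fold higher in TF1-BA cells (log2 fold change −0.67 ± 0.07 SE, adjusted p = 0.00662). SLC2A3, which encodes the high-affinity glucose transporter GLUT3 (positions 7919230 to 7936275 of chromosome 12), was at 27.2 and 30.9 FPKM in TF1-BA cells and at 38.3 and 43.9 FPKM in TF1-BAR cells. Both TF1-BAR libraries lay above both TF1-BA libraries, a 1.42-fold higher level (log2 fold change 0.49 ± 0.10, adjusted p = 0.0279). SLC2A3 was called under 12 of the 14 alternatives that used the 4 libraries (adjusted p from 0.000725 to 0.0894) and in 1 of the 4 fits without a library. As a share of the summed FPKM of both genes, SLC2A1 made up 64.4% ± 1.36 in TF1-BA cells and 44.4% ± 1.28 in TF1-BAR cells (SD, n = 2), so that SLC2A3 was the more abundant transcript in the resistant line. With 2 libraries a line the smallest p of an exact permutation test is 0.333, and shares are given without a test.

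The lactate transporters differed from each other in the same comparison. SLC16A3, which encodes the lactate exporter MCT4 (positions 82228397 to 82261129 of chromosome 17), was at 11.7 FPKM in both TF1-BA libraries and at 7.74 and 7.76 FPKM in TF1-BAR cells. The 2 libraries of each line were nearly equal, and the log2 fold change was −0.57 ± 0.07 (adjusted p = 0.00923). The overlapping gene CSNK1D on the opposite strand had the other direction, with a mean of 5.97 FPKM in TF1-BA and 9.05 FPKM in TF1-BAR cells, and the library kit named in the labels does not mark strand, so that reads in the overlap cannot be assigned. SLC16A1, which encodes MCT1, a carrier of lactate in either direction, was at 35.4 and 31.7 FPKM in TF1-BA cells and at 35.0 and 32.6 FPKM in TF1-BAR cells, with overlapping libraries. Its share of the summed FPKM of both carriers was 74.1% ± 1.55 in TF1-BA and 81.3% ± 0.79 in TF1-BAR cells.

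Of the hexokinases, which trap glucose in the cell by phosphorylation, HK1 was downregulated and HK2 did not pass the test. HK1 (positions 69269984 to 69401882 of chromosome 10) was the most abundant, at 103 and 106 FPKM in TF1-BA cells and at 66.5 and 64.9 FPKM in TF1-BAR cells. The lines were far apart relative to the spread within each, with a log2 fold change of −0.67 ± 0.06 and an adjusted p of 0.00531. Relative to the other genes of chromosome 10 the log2 fold change was −0.32. HK2, the isozyme known for its induction in growing tumour cells, was at 28.3 and 27.4 FPKM in TF1-BA cells and at 30.5 and 31.1 FPKM in TF1-BAR cells (adjusted p = 0.148). The share of HK1 in hexokinase FPKM was 79.0% ± 0.69 in TF1-BA and 68.1% ± 0.71 in TF1-BAR cells, and the summed hexokinase FPKM was 27.2% lower in TF1-BAR cells. HK3, an isozyme of mature myeloid cells, was below the filter with 3 and 2 fragments in TF1-BA and 2 and 3 fragments in TF1-BAR libraries, at or under the floor of 3 fragments below which no fold is given.

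At the phosphofructokinase step, PFKP was downregulated and PFKM and PFKL did not pass the test. PFKP, the platelet-type subunit, was at 37.5 and 36.1 FPKM in TF1-BA cells and at 28.6 and 28.4 FPKM in TF1-BAR cells (log2 fold change −0.36 ± 0.06, adjusted p = 0.0180), and its log2 fold change relative to the other genes of chromosome 10 was −0.02. PFKM, the muscle-type subunit and the most abundant gene of this group over the 4 libraries, was at 33.9 and 34.3 FPKM in TF1-BA cells and at 39.3 and 37.0 FPKM in TF1-BAR cells (adjusted p = 0.127). PFKL, the liver-type subunit, overlapped between the lines at 25.0 to 26.3 FPKM. By share of the summed FPKM, PFKP was the largest of the 3 subunits in TF1-BA cells at 38.0% ± 0.94 and PFKM in TF1-BAR cells at 41.3% ± 1.35.

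The PFKFB enzymes make and remove fructose 2,6-bisphosphate, the main activator of phosphofructokinase. PFKFB4 was at 5.76 and 5.94 FPKM in TF1-BA cells and at 7.15 and 7.54 FPKM in TF1-BAR cells (log2 fold change 0.30 ± 0.08, adjusted p = 0.0460). It was called under 6 of the 14 alternatives that used the 4 libraries (adjusted p from 0.0157 to 0.134). PFKFB2 was at 4.51 and 4.52 FPKM in TF1-BA and at 3.63 and 3.49 FPKM in TF1-BAR cells, just outside the threshold (log2 fold change −0.30 ± 0.08, adjusted p = 0.0539), and it was called under 7 of these 14 alternatives (adjusted p from 0.0118 to 0.101). It overlaps YOD1 on the opposite strand, which was at a mean of 20.9 FPKM in TF1-BA and 15.9 FPKM in TF1-BAR cells. PFKFB3 overlapped between the lines, at 6.23 to 6.83 FPKM. PFKFB4 took 34.2% ± 0.71 of the summed PFKFB level in TF1-BA and 42.3% ± 1.92 in TF1-BAR cells.

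**Figure D2:**
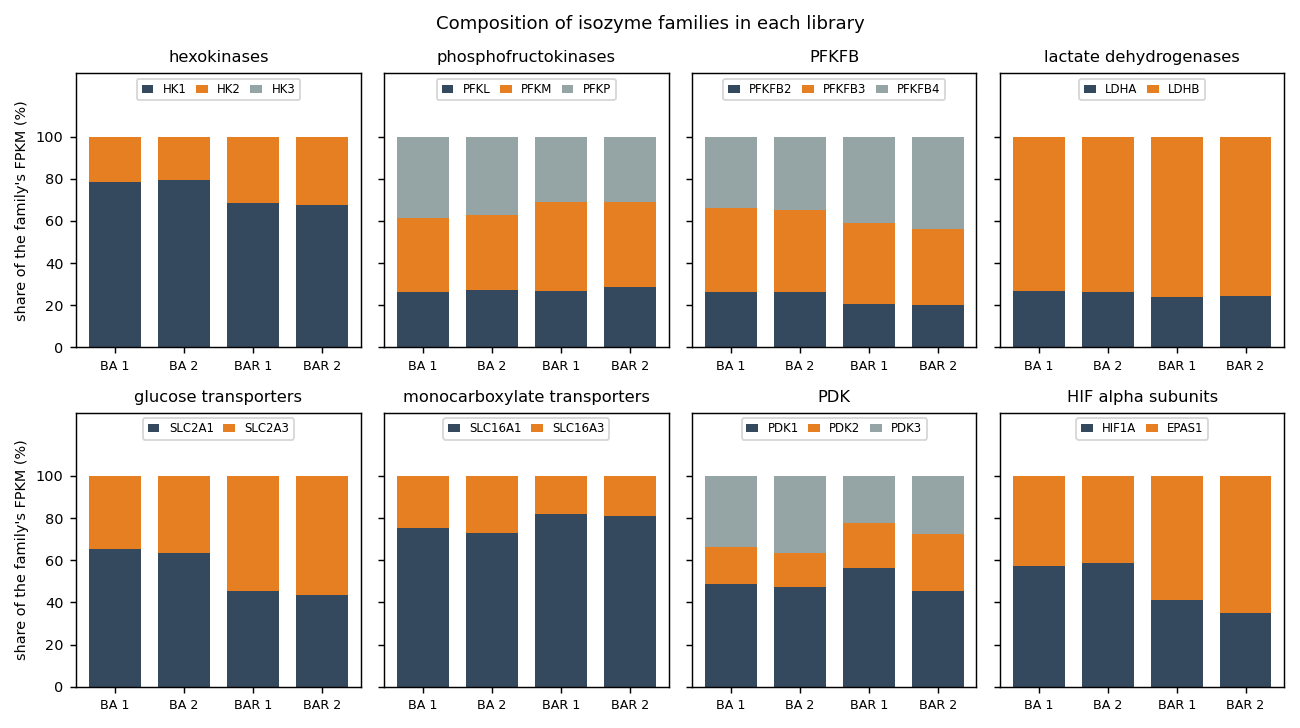
Each stacked bar is 1 library and shows the share of each gene in the summed FPKM of its isozyme family, in percent on the y axis, for 8 families. In TF1-BA and TF1-BAR cells, SLC2A1 makes up 64.4% and 44.4% of the glucose transporters, HK1 79.0% and 68.1% of the hexokinases and HIF1A 58.0% and 37.9% of the HIF alpha subunits (means of 2 libraries).

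Of the 12 genes of the remaining glycolytic steps, PGAM1, TPI1, PGK1 and GPI were downregulated and none was upregulated at an adjusted p under 0.05, with 9 log2 fold changes below 0. PGAM1, a phosphoglycerate mutase (positions 97426160 to 97433441 of chromosome 10), was at 126 and 120 FPKM in TF1-BA cells and at 79.6 and 75.6 FPKM in TF1-BAR cells. It was 1.59-fold higher in TF1-BA cells, with a log2 fold change of −0.66 ± 0.06 and an adjusted p of 0.00597, and with a log2 fold change of −0.32 relative to the other genes of chromosome 10. TPI1, triosephosphate isomerase, was at 94.9 and 91.3 FPKM in TF1-BA cells and at 77.5 and 63.8 FPKM in TF1-BAR cells. The TF1-BAR libraries of TPI1 lay far apart, and its adjusted p of 0.0474 was close to the threshold (log2 fold change −0.40 ± 0.10). Without the first TF1-BAR library the log2 fold change of TPI1 was −0.54, and without the second it was −0.26. PGK1, the first ATP-yielding enzyme of the pathway, was at 109 and 106 FPKM in TF1-BA and at 88.5 and 86.2 FPKM in TF1-BAR cells (log2 fold change −0.30 ± 0.06, adjusted p = 0.0219). GPI, the glucose 6-phosphate isomerase, had the smallest change among the called genes, from 115 FPKM in both TF1-BA libraries to 101 and 97.7 FPKM (log2 fold change −0.21 ± 0.05, adjusted p = 0.0477). Under the 14 alternatives that used the 4 libraries, TPI1 was called in 10 (adjusted p from 0.00347 to 0.136) and GPI in 9 (0.0199 to 0.130).

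The most abundant glycolytic transcripts lay lower in both TF1-BAR libraries without passing the test, although ENO1 was called under 1 of the 14 alternatives (adjusted p from 0.0188 to 0.321) and GAPDH under 2 (0.0261 to 0.320). ENO1, alpha-enolase and the highest of the 45 genes (positions 8861002 to 8879249 of chromosome 1), was at 536 and 540 FPKM in TF1-BA cells and at 476 and 495 FPKM in TF1-BAR cells (log2 fold change −0.15 ± 0.05, adjusted p = 0.0952). GAPDH, the glyceraldehyde 3-phosphate dehydrogenase often used as a reference gene, was at 461 and 482 FPKM in TF1-BA and at 381 and 437 FPKM in TF1-BAR cells (log2 fold change −0.21 ± 0.08, adjusted p = 0.125). Its log2 fold change was −0.11 without the first TF1-BAR library and −0.31 without the second. The 23 GAPDH pseudogenes, listed as separate rows, had a summed FPKM equal to 0.975% of that of GAPDH. ALDOA, aldolase A, was at 132 and 134 FPKM in TF1-BA and at 117 and 127 FPKM in TF1-BAR cells.

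The pyruvate kinase genes differed widely in level, and neither passed the test. PKM, which encodes the pyruvate kinase of most tissues, was at 102 to 104 FPKM in all 4 libraries, and its splice forms PKM1 and PKM2 are not separated in a value per gene. PKLR, the pyruvate kinase of liver and red cells, had the largest ratio of mean FPKM of the tested genes (2.96-fold higher in TF1-BA cells). It had few fragments, with 42 and 47 in TF1-BA and 9 and 20 in TF1-BAR cells. Its levels were 0.889 and 1.16 FPKM in TF1-BA and 0.218 and 0.475 FPKM in TF1-BAR cells, and its log2 fold change of −0.86 ± 0.24 did not pass the test (adjusted p = 0.0554). It was called under 4 of 13 alternatives with the 4 libraries (adjusted p from 0.00548 to 0.130), with a log2 fold change of −1.60 by limma voom on the recovered fragments. The scale of log2(FPKM + 0.5) understates changes at such levels. The minor isozymes ENO2 and ALDOC and the 2,3-bisphosphoglycerate mutase BPGM lay higher in both TF1-BAR libraries, at 16.6 against 19.0, 7.83 against 8.95 and 5.79 against 6.70 mean FPKM, and none passed the test.

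At the fate of pyruvate, PDHA1 and PDK3 were downregulated, and the other 4 genes did not pass the test. PDHA1, the catalytic alpha subunit of pyruvate dehydrogenase, was at 32.2 and 32.9 FPKM in TF1-BA cells and at 25.5 and 25.2 FPKM in TF1-BAR cells (log2 fold change −0.35 ± 0.06, adjusted p = 0.0186). PDK3, a kinase that inhibits this enzyme (positions 24465221 to 24539837 of chromosome X), was at 5.10 and 5.52 FPKM in TF1-BA cells and at 2.71 and 3.65 FPKM in TF1-BAR cells (log2 fold change −0.67 ± 0.15, adjusted p = 0.0315). The catalytic subunit and an inhibitor of it were thus lower together. Of the other pyruvate dehydrogenase kinases, PDK1 was at a mean of 7.21 FPKM in TF1-BA and 6.42 FPKM in TF1-BAR cells and PDK2 at 2.50 and 3.08 FPKM, and neither passed the test. PDK3 took 35.3% ± 2.07 of the summed FPKM of the 3 kinases in TF1-BA and 25.0% ± 3.98 in TF1-BAR cells.

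LDHB, the lactate dehydrogenase subunit of heart, was the most abundant gene of the pyruvate group. It was at 297 FPKM in both TF1-BA libraries and at 310 and 294 FPKM in TF1-BAR cells, which overlap (log2 fold change 0.02 ± 0.06, adjusted p = 0.779). That sign turned negative under upper-quartile scaling, quantile normalization and chromosome centring and without the first TF1-BAR library. LDHA, the muscle subunit and a known HIF-1 target, was at 110 and 105 FPKM in TF1-BA and at 98.6 and 93.9 FPKM in TF1-BAR cells (log2 fold change −0.16 ± 0.06, adjusted p = 0.118), and it was called under 1 of the 14 alternatives, chromosome centring (adjusted p from 0.0385 to 0.313 over all 14). LDHA made up 26.5% ± 0.58 of the summed level of both subunits in TF1-BA cells and 24.2% ± 0.07 in TF1-BAR cells.

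Of the pentose phosphate genes, PGD and TALDO1 were downregulated, and the summed FPKM of the 6 genes was 23.3% lower in TF1-BAR cells. PGD, which encodes phosphogluconate dehydrogenase, an NADPH-yielding enzyme of the pathway (positions 10398592 to 10420144 of chromosome 1), was the most abundant of the group, at 155 and 157 FPKM in TF1-BA cells and at 104 and 103 FPKM in TF1-BAR cells. The lines differed 1.51-fold with almost no spread between libraries (log2 fold change −0.59 ± 0.05, adjusted p = 0.00565). TALDO1, the transaldolase of the non-oxidative branch, was at 68.7 and 70.7 FPKM in TF1-BA and at 54.9 and 54.6 FPKM in TF1-BAR cells (log2 fold change −0.35 ± 0.06, adjusted p = 0.0163). TKT, the transketolase of the same branch, overlapped between the lines at 36.2 to 37.3 FPKM. RPIA and RPE, the isomerase and epimerase of the pentose phosphates, were at means of 22.2 and 27.5 FPKM in TF1-BA and 18.7 and 23.5 FPKM in TF1-BAR cells without passing the test, and PGLS, the lactonase of the oxidative branch, overlapped.

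The hypoxia genes did not move in one direction. EPAS1, which encodes HIF-2 alpha (positions 46293667 to 46386703 of chromosome 2), was at 10.8 FPKM in both TF1-BA libraries and at 20.6 and 23.7 FPKM in TF1-BAR cells. Its 2.05-fold higher level was the largest called change among the 43 genes (log2 fold change 0.998 ± 0.0887, adjusted p = 0.00565). All 30 tested protein-coding genes within 5 Mb had a lower log2 fold change, with a median of 0.02. HIF1A, which encodes HIF-1 alpha, was at 14.6 and 15.4 FPKM in TF1-BA and at 14.3 and 12.6 FPKM in TF1-BAR cells, without passing the test. EPAS1 made up 42.0% ± 0.97 of the summed FPKM of both alpha subunits in TF1-BA cells and 62.1% ± 4.34 in TF1-BAR cells. HIF alpha subunits are known to be controlled mainly through protein stability, which was not measured here.

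Of the known HIF targets in the hypoxia group, VEGFA alone passed the test. VEGFA, the vascular growth factor and the most abundant gene of the hypoxia group (positions 43770184 to 43786487 of chromosome 6), was at 53.3 and 54.9 FPKM in TF1-BA cells and at 39.3 and 39.0 FPKM in TF1-BAR cells. It was downregulated with a log2 fold change of −0.46 ± 0.06 (adjusted p = 0.00981). EGLN3, a HIF hydroxylase that is itself a HIF target, had 48 and 54 fragments in TF1-BA and 105 and 116 fragments in TF1-BAR cells, that is 0.362 and 0.475 against 0.905 and 0.981 FPKM. Both TF1-BAR libraries were higher, but the log2 fold change of 0.65 ± 0.18 did not pass the test (adjusted p = 0.0565). It was called under 2 of 13 alternatives (adjusted p from 0.000617 to 0.155), with a log2 fold change of 1.19 by limma voom on the recovered fragments. The annotated span of EGLN3 also covers SPTSSA on the same strand (a mean of 14.2 FPKM in TF1-BA and 12.1 FPKM in TF1-BAR cells).

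The remaining hypoxia genes showed no call. EGLN1, the main HIF hydroxylase of most cells, was at 9.71 and 8.08 FPKM in TF1-BA and at 9.58 and 9.02 FPKM in TF1-BAR cells. BNIP3, a mitophagy receptor and HIF target, was at 17.6 and 16.8 FPKM in TF1-BA and at 18.9 and 18.3 FPKM in TF1-BAR cells, and its 20 pseudogenes, listed as separate rows, had a summed FPKM equal to 41.1% of that of BNIP3, so that reads may be split between copies. ADM, the vasodilator adrenomedullin, had 12 to 20 fragments per library, with a 95% interval of the log2 fold change from −0.56 to 0.60, which leaves sizeable changes undetectable at this depth. CA9, a carbonic anhydrase used as a marker of hypoxic tumour cells, was below the filter with 2 and 1 fragments in TF1-BA and 0 in both TF1-BAR libraries, and no fold is given.

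**Figure D3:**
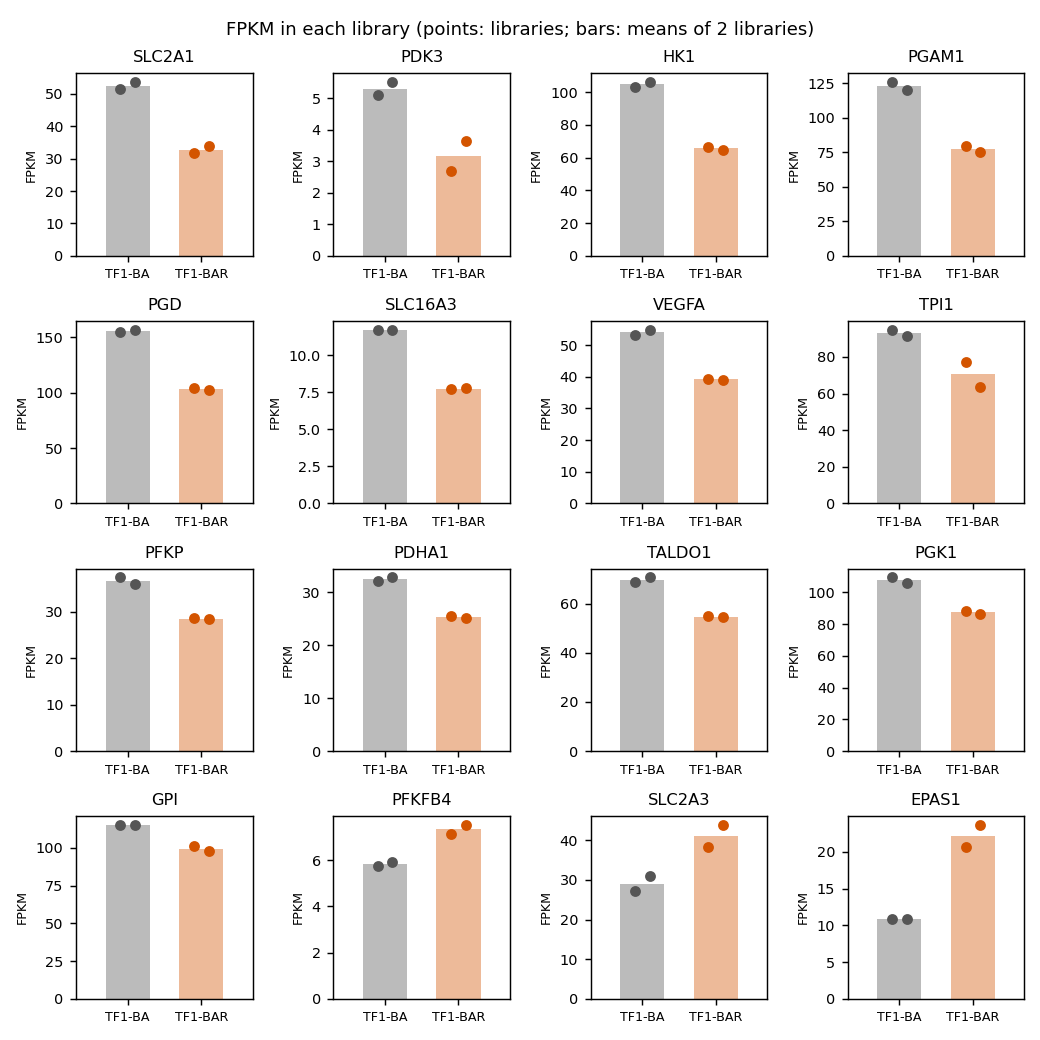
FPKM (y axis, from 0) of the 16 genes with an adjusted p under 0.05, with 1 point per library and bars for the mean of 2 libraries. In none of the 16 genes do the libraries of the lines overlap. The libraries of TPI1, PDK3, SLC2A3, EPAS1, GPI and PFKFB4 lie farther apart in TF1-BAR than in TF1-BA cells.

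The place of a gene on the chromosomes was a shared feature for some of these genes. Chromosome 10 as a whole was lower in TF1-BAR cells, with a median log2 fold change of −0.35 over 593 genes tested and 44.5% of them called lower. It carries HK1, PGAM1 and PFKP together with PFKFB3 and BNIP3. The 450 protein-coding genes tested there had a lower median of −0.42. The centring used genes of all types, and centring on the protein-coding median, which would leave smaller differences for HK1 and PGAM1, was not tested. With each gene centred on the median of the other genes of its chromosome, HK1 went from −0.67 to −0.32 (adjusted p = 0.0204) and PGAM1 from −0.66 to −0.32 (adjusted p = 0.0260), both still called, while PFKP was at −0.02 (adjusted p = 0.861) and lost its call. Within 5 Mb of HK1 the 61 tested neighbours, all protein-coding as in every such window, had a median of −0.47, and 13 lay below HK1. The 80 neighbours of PGAM1 had a median of −0.37, with 18 below it, and the 27 neighbours of PFKP a median of −0.30, with 11 below it. BNIP3 was called higher after centring (log2 fold change 0.46, adjusted p = 0.0151), against neighbours with a median of −0.27.

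Away from chromosome 10, 10 of 38 tested genes were downregulated (26.3%) and 3 upregulated (7.89%), while 9.15% of all genes tested off that chromosome were lower and 16.8% higher. The 3 genes on chromosome X, PGK1, PDK3 and PDHA1, were all downregulated, although the median over that chromosome was 0.05. Their protein-coding neighbours within 5 Mb had medians of −0.13, −0.08 and −0.08. The protein-coding neighbours of PGD within 5 Mb had a median of 0.15, those of VEGFA 0.16 and those of SLC16A3 0.10, all above 0 where the genes themselves were lower.

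Further genes of the same pathways, 69 symbols of which 64 were in the table and 47 were tested, gave 10 downregulated genes (21.3%, against 10.5% of all genes tested) and 4 upregulated genes (8.51%, against 16.3%). Off chromosome 10, 7 of 43 were lower (16.3%, against 9.15%) and 4 higher (9.30%, against 16.8%). The genes that also passed an absolute log2 fold change of 1 were LDHD, PDK4 and DDIT4, all lower in TF1-BAR cells. LDHD, a mitochondrial D-lactate dehydrogenase, was at 5.71 and 6.03 FPKM in TF1-BA and at 1.29 and 1.50 FPKM in TF1-BAR cells (log2 fold change −1.75 ± 0.11, adjusted p = 0.00337). PDK4, a starvation-induced inhibitor of pyruvate dehydrogenase, was at 3.51 and 3.43 FPKM in TF1-BA and at 0.955 and 0.702 FPKM in TF1-BAR cells (log2 fold change −1.59 ± 0.14, adjusted p = 0.00565). DDIT4, an mTORC1 inhibitor induced by hypoxia and stress, was at 237 and 225 FPKM in TF1-BA and at 99.7 and 107 FPKM in TF1-BAR cells (log2 fold change −1.15 ± 0.07, adjusted p = 0.00307), and it also lies on chromosome 10. PDK4 and PDK3 were thus both lower.

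The counts by role are small and are read beside the shares of all genes tested, 10.5% lower and 16.3% higher. The additional pyruvate dehydrogenase genes gave 3 lower calls of 10 tested (PDK4, the mitochondrial pyruvate carrier subunit MPC2 and the dehydrogenase subunit DLD). The additional pentose phosphate genes gave 1 lower call of 5 tested, the ribose phosphate kinase PRPS2, and 1 higher call, H6PD, an NADPH-yielding enzyme of the endoplasmic reticulum. The additional hypoxia genes were split, with CITED2, a HIF-induced inhibitor of HIF-1 activity, the transcriptional repressor BHLHE40 and the mitophagy receptor BNIP3L higher, and DDIT4, the collagen prolyl hydroxylase subunit P4HA1 and the MYC antagonist MXI1 lower, of 18 tested (16.7% in each direction). The 3 lower ones all lie on chromosome 10, and relative to the median of the other genes there the log2 fold change was −0.81 for DDIT4, −0.11 for P4HA1 and −0.11 for MXI1. The additional transporters gave no call among 6 tested, and the additional genes of glycolysis and gluconeogenesis gave 3 lower calls of 8, the mitochondrial phosphoenolpyruvate carboxykinase PCK2, LDHD and the phosphopentomutase PGM2.

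Sums, shares and levels compared between genes are per length of the union of annotated exons, which is 14431 bases for VEGFA and 14883 bases for PDK1, and they depend on that annotation. Without either TF1-BA library in turn, none of the 45 genes kept a call, where 0.928% and 0.271% of all genes tested were called. Without the second TF1-BAR library 7 were lower and 1 higher, where 6.62% of all genes were called, and without the first 12 were lower and 2 higher, where 20.5% were. The sign of all 16 called genes was the same in each of these fits.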

How the data were processed

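RNA of TF1-BA and TF1-BAR cells was sequenced in 2 libraries per line, and groups and replicate numbers were taken from the labels. Per the submitters' notes and the study's methods, 150-bp paired-end reads were mapped to GRCh38 with TopHat2 2.0.13 and quantified with Cufflinks and Cuffdiff 2.2.0. The values deposited by the authors are FPKM per gene and library, not log-transformed, and the annotation release is not given in the sources used here. No value column was left without a sample, and the annotation columns used gave gene names, gene types such as protein-coding, and positions. The study's DESeq2 test needs counts and was not run on FPKM.

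Fragments were recovered by finding the library sizes and exon lengths at which a gene's FPKM become whole in all 4 libraries (within 0.002). All 30853 genes above 0 came out whole, 14306 of them at their GENCODE 44 exon length and the rest at a fitted length. With wrong library sizes, 0 of 300 genes were both above 0 in all 4 libraries and whole. Genes seen in fewer libraries could not count in that control, so that it does not cover them. Fragment numbers carry counting error as well as the spread between libraries.

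The lines were compared by limma 3.58.1 under R 4.3.3, using lmFit and eBayes with trend, on log2(FPKM + 0.5) over 15519 genes with a mean of at least 0.5 FPKM, with Benjamini-Hochberg adjustment over all of them. A gene was called at an adjusted p under 0.05, and the log2 fold change of 1 is the threshold of the study's methods. The test was tried on simulated data. Named in full were the 12 tested genes with the largest absolute log2 fold change, the most abundant of each role, those below the filter, and additional pathway genes past both thresholds. Others are examples. 1 item of these lists is not reported here. The genes and lists were chosen with earlier results of these data known. Alternatives covered the pseudocount, filter, scaling, moderation, replicate block, chromosome centring and each library left out. Limma voom on the recovered fragments and removal of a trend on GC content, length and level (splines with 4 degrees of freedom), without and with the block, were chosen after seeing the data.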

Additional observations from a re-analysis of the deposited data

How the results depend on the processing

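Of the 16 called genes, 7 were called under all 14 alternatives that used the 4 libraries, namely SLC2A1, SLC16A3, HK1, PGAM1, PGD and VEGFA (lower) and EPAS1 (higher), and the sign of all 16 was the same under each of them. PGK1 and PDK3 lost their calls with no filter and without the trend, PDHA1 and TALDO1 without the trend. The count of higher genes was 3 and fell to 1 with no filter, where 4.69% of all genes were called against 26.9%. The count of lower genes was 13 and fell to 7 without the trend, where 19.9% of all genes were called. At both thresholds the count of higher genes was 0 and became 1 with a pseudocount of 0.1 or TPM and 2 with voom, and the count of lower genes was 0 and became 1 with quantile normalization or voom. Over all genes, 737 passed both thresholds, against 487 with a pseudocount of 1 and 1145 with voom. Leaving out each library in turn gave 0 to 2 higher genes, 0 to 12 lower genes, 0 to 1 higher gene at both thresholds and 42 to 783 genes of all at both thresholds. The lone library of a line is then assumed to vary like the other line.

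LDHB turned to −0.0032 with upper-quartile scaling, −0.0697 with quantile normalization, −0.0573 with chromosome centring, and ranged from −0.0155 (without the first TF1-BAR library) to 0.0625 as each library was left out. The cause was not tested. The replicate numbers did not pair the libraries (correlation of same-numbered deviations 0.0646). With the replicate block 2 genes were higher and 12 lower, without PFKFB4 and GPI, and 755 of all genes passed both thresholds. PKLR, EGLN3, ADM, HK3 and CA9 rest on few fragments, and voom called PKLR and EGLN3.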
